A study of Homo sapiens with 4 samples.

Results

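The 38 genes described here encode the machinery that copies DNA in S phase. They were listed by symbol as licensing, replication fork and nucleotide synthesis genes, and each symbol was matched to its Ensembl identifier in the table of counts. All 38 were found among the 66963 genes listed, and all 38 passed the filter on low counts that kept 14303 genes. Gene expression was measured by RNA-sequencing in SAS, a line from a human squamous carcinoma of the tongue, after viral delivery of an shRNA. The 2 control libraries (Ctrl) carried an shRNA against luciferase, a sequence human cells lack, and the 2 knockdown libraries (shSTAU1) carried an shRNA against STAU1, which encodes a protein that binds double-stranded RNA. All 4 libraries are labelled wild type in genotype, and 1 shRNA name stands for each group. The labels do not say whether replicates 1 and 2 of a group are separate infections or cultures, so the spread between them may be technical.

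Replication starts with licensing, in which the origin recognition complex (ORC), CDC6 and CDT1 load the MCM helicase onto origins in G1. MCM10, CDC45 and the GINS complex then turn MCM into the active helicase, RPA coats the single strands, and the sliding clamp PCNA, loaded by RFC, holds the polymerases on the template. Many of these genes are transcribed by E2F factors when RB is phosphorylated at the end of G1, so their mRNAs are commonly read as markers of proliferating cells. Many squamous carcinomas express them at high levels.

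Between 32206655 and 36301574 reads were counted on genes per library. STAU1 was at 248.7 and 251.0 CPM (counts relative to the TMM-scaled library size) in Ctrl and at 41.62 and 41.51 CPM in shSTAU1, a log2 fold change of -2.59 (SE 0.127, adjusted p = 0.00103 in edgeR's quasi-likelihood test). Part of the labels name C3H 10T1/2, a mouse fibroblast line, while the others give human SAS cells. All 12 squamous epithelial markers examined were detected, with summed levels from 10620 to 14920 CPM per library. The 10 fibroblast markers summed to between 17.43 and 31.34 CPM, most of it from COL1A1 and FAP. COL1A1 was at 6.254 to 20.25 CPM per library, FAP at 7.244 to 15.08 and COL1A2 at 1.19 to 3.622. PDGFRA and PDGFRB reached at most 0.5948 and 0.6719 CPM. POSTN and THY1 were at 0, and COL3A1, DCN and LUM at 0 or 1 count per library. The 5 leukocyte markers summed to 2.066 to 3.102 CPM. Of these markers KRT5 rose and COL1A1 fell past the threshold, but neither list moved in 1 direction. CDH1, DSG3, ITGA6 and ITGB4 had estimates below 0, and the other squamous markers above 0. Of the other fibroblast markers tested, COL1A2 and FAP had estimates above 0, and PDGFRA and PDGFRB below 0. The part of these markers in the results below was not tested.

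A shared feature that did not depend on these libraries was the short sequence that E2F factors recognize. RefSeq promoter windows of GRCh38.p14 were found for 32 of the 38 genes (39 windows). They run from 250 bases before to 50 bases after a transcript start. For 35 windows the bases just after the start occur in the first part of a GENCODE transcript of the gene. Whether the exact starts agree was not examined. The E2F words searched on both strands were TTTGGCGC, TTTCCCGC, TTTCGCGC and TTTGCCGC. At least 1 of them was present in 43.6% of the member windows, against 4.76% of the windows of the tested genes and 3.31% of all windows of that length in the table. By gene, 17 of 32 members (53.1%) had a word, against 6.52% of the tested genes. The 5-base word CCAAT was in 64.1% of the member windows and in 34.7% of those of the tested genes, while TTTGAA, part of a motif of mitosis genes, was in 2.56% and 10.8%. A match is a description of letters, not evidence of binding. The stretches of 30 bases below, written 5′ to 3′ on the strand of the gene with the word in capitals, are shown because their genes recur in the results and because they hold the word in both orientations.
PCNA, minus strand of chr20:5126663-5126692: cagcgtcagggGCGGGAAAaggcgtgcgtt
GINS1, plus strand of chr20:25407667-25407696: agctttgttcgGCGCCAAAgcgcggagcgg
POLE, minus strand of chr12:132687342-132687371: tgggtgggagcGCGCCAAAtttctcccctg
TYMS, plus strand of chr18:657603-657632: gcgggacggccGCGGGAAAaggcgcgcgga
MCM6, minus strand of chr2:135876515-135876544: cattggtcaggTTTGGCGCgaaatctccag
MCM2, plus strand of chr3:127598402-127598431: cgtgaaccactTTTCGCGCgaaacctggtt
In PCNA, GINS1, POLE and TYMS the word lies on the opposite strand and is printed as its reverse complement, whereas in MCM6 and MCM2 it lies on the strand of the gene and overlaps a further match on the other strand.

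To ask whether replication gene expression differed after STAU1 knockdown, shSTAU1 was compared with Ctrl over all 14303 genes. None of the 38 genes passed an adjusted p of 0.05 in edgeR's quasi-likelihood test, against a background of 372 genes (161 higher and 211 lower, 2.6% of those tested). At an unadjusted p of 0.05, 7 of the 38 were higher and 1 was lower, beside 12.9% and 11.6% of all tested genes. DESeq2 called 4 of the 38 (GINS1, PCNA, RPA1 and RPA3, all higher, background 10.1%) and limma-voom called 0 (background 2.54%). A newer form of the edgeR test called RPA1 and RPA3 (background 3.31%). With the replicate number as a block the edgeR test called 13 of the 38 (12 higher and 1 lower, background 28.6%). The higher genes were MCM4, MCM7, GINS1, PCNA, RFC2, PRIM1, RPA1, RPA2, RPA3, FEN1, RRM1 and RRM2, and POLE was lower. The main fit had no such term, although each Ctrl library shares its first digit in the library names with the shSTAU1 library of its number. Same-numbered libraries deviated together (correlation 0.271 over tested genes and 0.587 over 4791 genes above log2 CPM 5). The median log2 fold change of the 38 genes was 0.134, beside 0.006 over all tested genes, and 28 estimates were above 0 and 10 below (50.4% of all tested genes were above 0). The estimates of ORC1 and MCM5, both close to 0, turned negative with scaling by library size. The groups did not overlap for 14 genes, of which 11 were higher and 3 lower in shSTAU1, beside 28.5% and 28.0% of all tested genes and 56.6% in either direction. Without shSTAU1 replicate 1 the edgeR test called 12 of the 38 genes (background 18.4%) and the median was 0.315, while without shSTAU1 replicate 2 it called 3 (background 12.1%) and the median was -0.05. It called 0 without Ctrl replicate 1 (background 1.5%), without Ctrl replicate 2 (1.58%), with scaling by library size (2.82%), without the filter (0.0443%) and with a correction for length and GC content (2.12%).

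**Figure D1:**
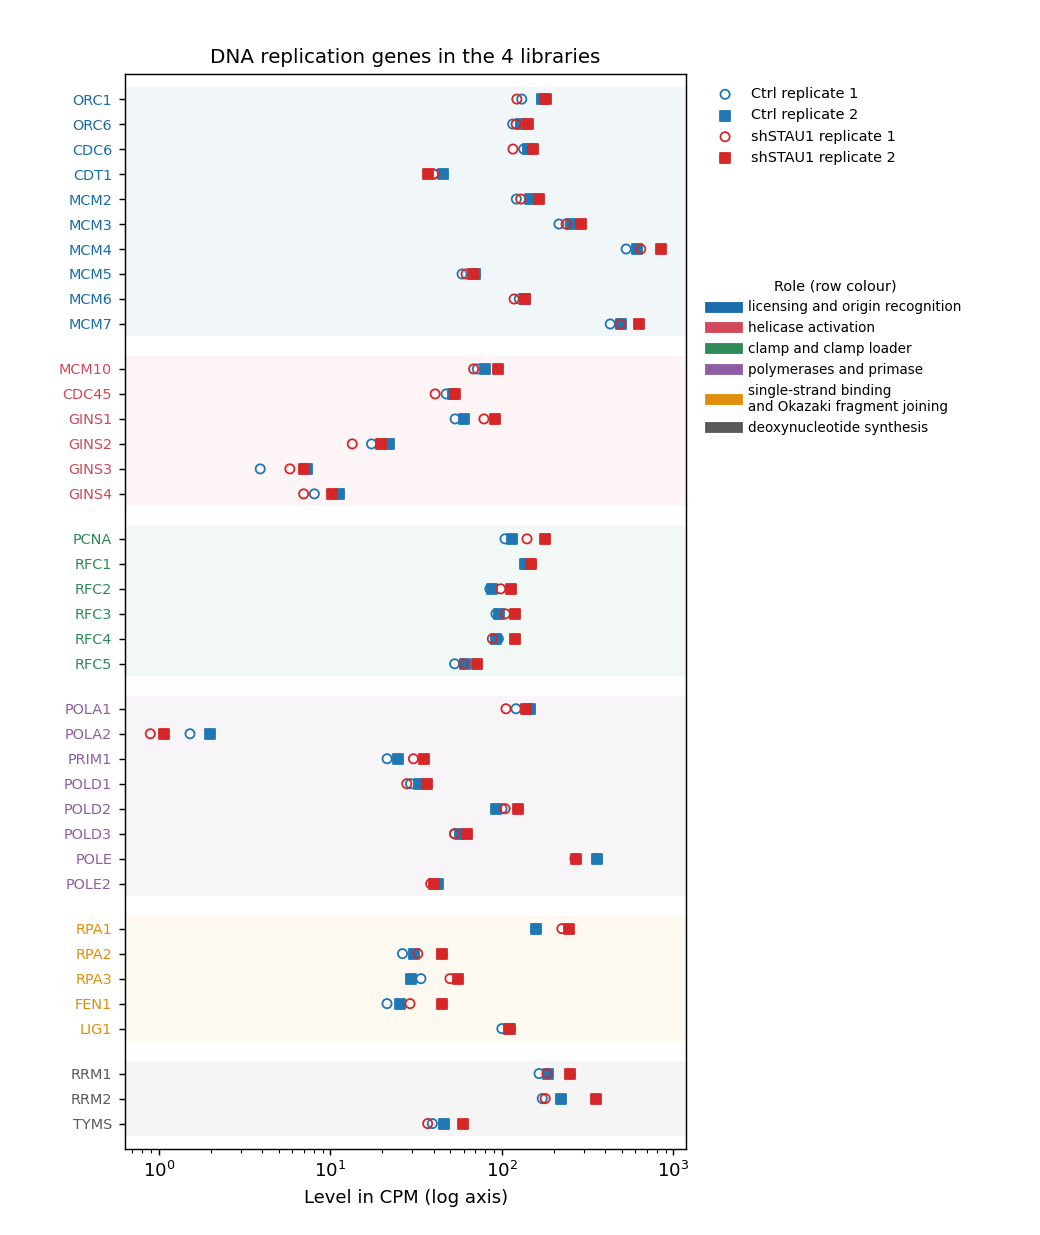
Scaled level of the 38 replication genes in each of the 4 libraries, by role, in CPM on a log axis. The shSTAU1 replicate 2 library is the highest for 26 genes and the Ctrl replicate 1 library the lowest for 19.

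The precision set a limit on what could be seen. The members were covered by 31 to 29888 counts per library, and the standard error of the log2 fold change ran from 0.117 to 0.416. For 20 of the 38 genes the 95% interval lay within a 1.5-fold difference in either direction, and the median interval reached 0.366 on either side of the estimate. The other 18 intervals did not exclude a difference of that size. No exact permutation test is given for single genes, because its p cannot fall below 0.333 for 2 libraries against 2.

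**Figure D2:**
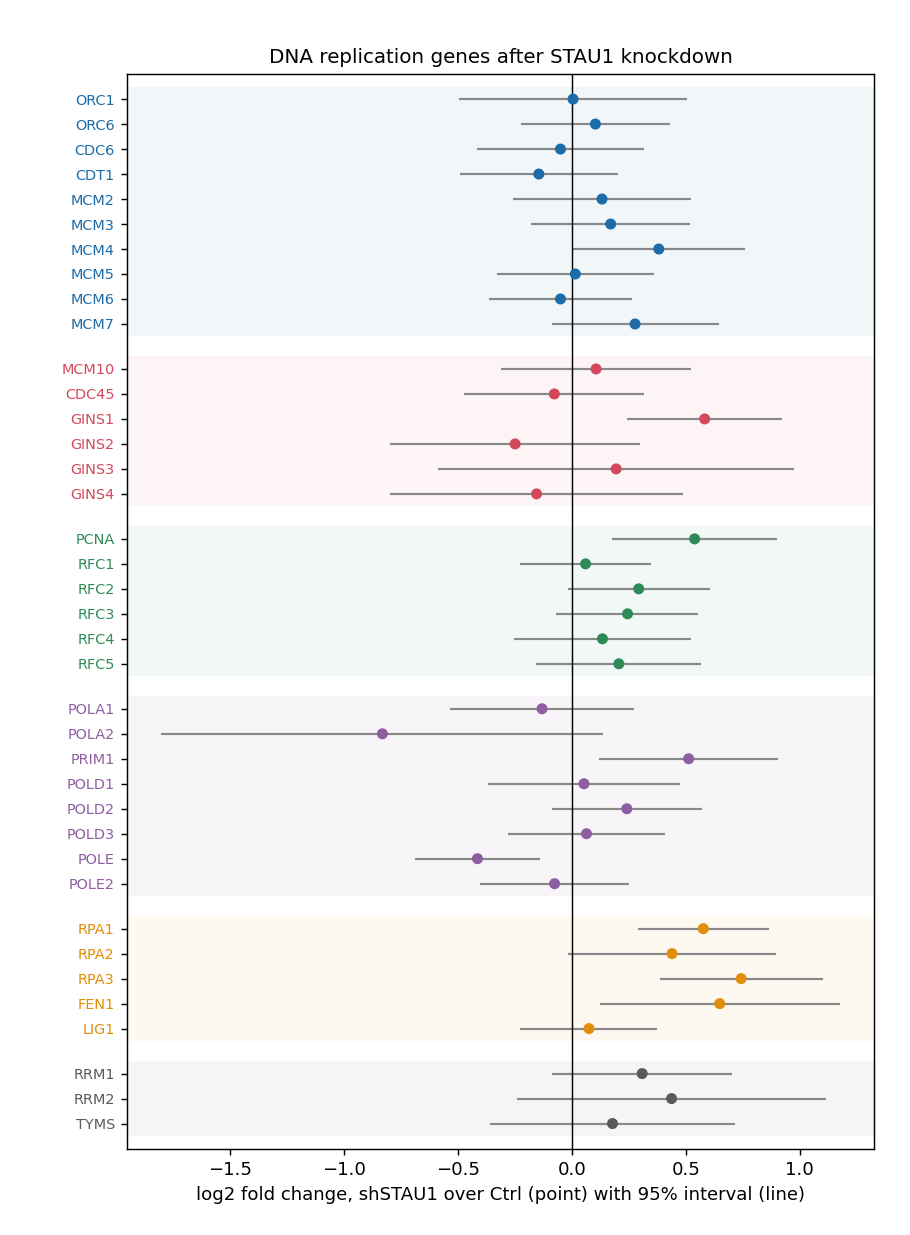
Log2 fold change of shSTAU1 against Ctrl for each of the 38 genes, by role, with its 95% interval from edgeR's quasi-likelihood fit. The estimates run from -0.83 for POLA2 to 0.74 for RPA3, and none passed the adjusted threshold.

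The proteins that bind single-stranded DNA and finish Okazaki fragments (RPA1, RPA2, RPA3, FEN1 and LIG1) had the highest median of the 6 roles, at 0.577 on the log2 scale, with 5 of 5 estimates above 0. RPA3, the smallest RPA subunit (ENSG00000106399, chr7:7636518-7718607, minus strand, GENCODE 29 on GRCh38), was at 33.72 and 29.32 CPM in the Ctrl libraries and at 49.81 and 55.74 CPM in the shSTAU1 libraries. Both shSTAU1 libraries were above both Ctrl libraries. The log2 fold change of RPA3 was 0.74 (SE 0.154, 95% interval 0.39 to 1.10), the largest among the members, with an adjusted p of 0.0519 by edgeR, just outside the threshold. Over the 10 alternatives without a replicate term the adjusted p of RPA3 ran from 0.000396 to 0.257.
RPA1, the large subunit that makes most contacts with DNA (ENSG00000132383, chr17:1829702-1900082, plus strand), was at 158.1 and 157.1 CPM in Ctrl and at 223.8 and 246.5 CPM in shSTAU1. Its Ctrl libraries were nearly equal and both shSTAU1 libraries lay above them, with a log2 fold change of 0.58 (SE 0.124, 95% interval 0.29 to 0.87, adjusted p = 0.056). Its adjusted p ran from 0.000725 to 0.276 over the same alternatives.
RPA2, the subunit phosphorylated after replication stress, was at 26.32 and 30.54 CPM in Ctrl and at 32.34 and 44.79 CPM in shSTAU1 (log2 fold change 0.44, SE 0.196, adjusted p = 0.218). The 3 subunits act as 1 trimer, and for each of them the lower shSTAU1 library was above the higher Ctrl library. The same held for 28.5% of all tested genes. FEN1, the nuclease that trims Okazaki flaps, was at 21.38 and 25.53 CPM in Ctrl and at 29.13 and 44.45 CPM in shSTAU1, with a log2 fold change of 0.65 (SE 0.226, adjusted p = 0.135). The groups did not overlap, but the shSTAU1 libraries lay farther apart than the Ctrl libraries. LIG1, the ligase that seals the fragments, overlapped between the groups, at 99.95 and 111.1 against 112.3 and 110.1 CPM (log2 fold change 0.08, SE 0.129, adjusted p = 0.752). Per kb of exon, RPA1 had the highest level of the role, at 28.7 CPM per kb in Ctrl and 42.82 in shSTAU1. On the opposite strand, SMYD4 overlaps 2.8% of the RPA1 exon bases, UMAD1 3.7% of those of RPA3 and TMEM258 6.7% of those of FEN1. These libraries were made with an exome capture kit, so levels per length also depend on the probes.

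Among the clamp and clamp loader genes, PCNA and the 5 RFC subunits, 6 of 6 estimates were above 0 and the median was 0.226. PCNA, the sliding clamp (ENSG00000132646, chr20:5114953-5126626, minus strand), was at 104.3 and 115.3 CPM in Ctrl and at 140.1 and 178.8 CPM in shSTAU1. The groups did not overlap, and the shSTAU1 libraries were farther apart than the Ctrl libraries. The log2 fold change was 0.54 (SE 0.156, 95% interval 0.18 to 0.90), with an adjusted p of 0.0926 by edgeR and a range of 0.000277 to 0.403 over the alternatives without a replicate term. Per kb of exon PCNA was the third highest member in Ctrl, at 74.62 CPM per kb, after MCM7 and MCM4.
RFC2 was at 85.11 and 87.08 CPM in Ctrl and at 98.41 and 112.7 CPM in shSTAU1, and RFC3 at 92.39 and 96.7 against 104.6 and 119.5 CPM. Neither overlapped between the groups, with log2 fold changes of 0.29 (SE 0.134, adjusted p = 0.225) and 0.25 (SE 0.134, adjusted p = 0.298). RFC4, RFC5 and the large subunit RFC1 overlapped, with log2 fold changes of 0.14, 0.21 and 0.06. RFC1 had the smallest estimate of the role, with 148.1 and 136.5 against 148.9 and 147.9 CPM (SE 0.124, adjusted p = 0.797).

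The polymerases and primase did not share a direction, with 4 estimates above 0 and 4 below and a median of -0.01. POLE, the catalytic subunit of the leading strand polymerase (ENSG00000177084, chr12:132623753-132687365, minus strand), was at 359.2 and 357.6 CPM in Ctrl and at 266.6 and 271.7 CPM in shSTAU1. The replicates of each group lay close together and the groups were apart. Its log2 fold change was -0.41 (SE 0.117, the smallest of the members, 95% interval -0.69 to -0.14), with an adjusted p of 0.0897 by edgeR and a range of 0.0477 to 0.422 over the alternatives without a replicate term. POLE2, the second subunit of the same enzyme, was at 40.59 and 42.33 against 38.43 and 40.29 CPM. Its groups were also apart, but only just, with a log2 fold change of -0.08 (SE 0.14, adjusted p = 0.775). POLA2, the second subunit of polymerase alpha (ENSG00000014138, chr11:65261762-65305589, plus strand), had the most negative estimate and the fewest counts, with 51 and 65 counts in Ctrl and 31 and 38 in shSTAU1. Scaled, these were 1.517 and 1.985 against 0.89 and 1.08 CPM, a log2 fold change of -0.83 whose 95% interval ran from -1.80 to 0.14 (SE 0.416, adjusted p = 0.261). The interval of POLA2 included 0, and 35.1% of its exon bases are shared with another gene on the same strand that had at most 2 counts per library.
PRIM1, the primase subunit that makes the RNA primers, was at 21.41 and 24.65 CPM in Ctrl and at 30.48 and 35.23 CPM in shSTAU1, without overlap (log2 fold change 0.51, SE 0.168, adjusted p = 0.12). Of its exon bases, 1.4% are shared with NACA on the same strand, which had 14769 to 25364 counts per library. PRIM1, POLA1 and POLA2 are parts of 1 enzyme, and their estimates were 0.51, -0.13 and -0.83. POLD2, a subunit of the lagging strand polymerase, had the highest level of the role per kb of exon, at 26.13 CPM per kb in Ctrl. It was at 100.2 and 92.91 against 104.4 and 124.0 CPM (log2 fold change 0.24, SE 0.141, adjusted p = 0.327). The catalytic subunit POLD1 and the accessory subunit POLD3 overlapped between the groups, with log2 fold changes of 0.05 and 0.07.

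Of the 6 genes that activate the helicase, GINS1 (ENSG00000101003, chr20:25407727-25452628, plus strand) had the largest estimate. It was at 53.35 and 59.83 CPM in Ctrl and at 78.56 and 90.95 CPM in shSTAU1. Both shSTAU1 libraries exceeded both Ctrl libraries, with a log2 fold change of 0.58 (SE 0.145, 95% interval 0.24 to 0.92), an adjusted p of 0.0717 by edgeR and a range of 0.00122 to 0.372 over the alternatives without a replicate term. GINS2, GINS3 and GINS4, which form a tetramer with GINS1, overlapped between the groups, with log2 fold changes of -0.25 (SE 0.235), 0.20 (SE 0.335) and -0.15 (SE 0.275). The difference between GINS1 and the other subunits was not tested. GINS2, with the most negative estimate of the role, was at 17.37 and 21.9 CPM in Ctrl and at 13.41 and 19.64 CPM in shSTAU1. CDC45, which binds MCM together with GINS and had the highest level of the role per kb of exon in Ctrl (17.38 CPM per kb), was at 47.31 and 51.59 against 40.79 and 53.0 CPM. Its groups overlapped, as did those of MCM10, and their log2 fold changes were -0.08 and 0.11.

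The 10 licensing genes had a median log2 fold change of 0.06. MCM7 and MCM4, subunits of the helicase ring, had the highest levels per length of all members in Ctrl. They were at 105.1 and 82.02 CPM per kb of exon in Ctrl and at 127.5 and 106.9 CPM per kb in shSTAU1. MCM4 was at 530.5 and 613.4 CPM in Ctrl and at 645.0 and 845.7 CPM in shSTAU1. It was the licensing gene whose groups did not overlap, with a log2 fold change of 0.38 (SE 0.162, adjusted p = 0.2). MCM7 was at 428.6 and 493.7 against 489.7 and 628.8 CPM (log2 fold change 0.28, SE 0.157, adjusted p = 0.314), and 8.9% of its exon bases lie opposite AP4M1. MCM2, MCM3, MCM5 and MCM6 overlapped, with log2 fold changes of 0.13, 0.17, 0.02 and -0.05. The 6 MCM proteins form 1 ring, and MCM5 was the lowest of their mRNAs per kb of exon, at 8.735 CPM per kb in Ctrl.
CDT1, the loader that is destroyed in S phase, had the most negative estimate of the role, at 39.94 and 45.57 CPM in Ctrl and at 40.07 and 37.3 CPM in shSTAU1 (log2 fold change -0.14, SE 0.149, adjusted p = 0.583). ORC1, the ORC subunit that cycles with the cell cycle, was at 130.6 and 172.3 CPM in Ctrl and at 122.3 and 181.8 CPM in shSTAU1. Replicate 2 was above replicate 1 in both groups for ORC1, and the group means were nearly equal (log2 fold change 0.01, SE 0.215, adjusted p = 0.989). CDC6 and ORC6 also overlapped, with log2 fold changes of -0.05 and 0.10.

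The deoxynucleotide synthesis genes had 3 of 3 estimates above 0, with a median of 0.309, but in none were the groups apart. RRM2, the S phase subunit of ribonucleotide reductase (ENSG00000171848, chr2:10120698-10131419, plus strand), was at 171.9 and 219.8 CPM in Ctrl and at 178.9 and 351.7 CPM in shSTAU1. The first shSTAU1 library lay between the Ctrl libraries and the second far above all others. Its log2 fold change was 0.44 with a 95% interval of -0.24 to 1.11 (SE 0.29, adjusted p = 0.385). The annotation gives 20.2% of the RRM2 exon bases also to AC007240.1 on the same strand, a gene absent from the deposited counts. RRM1, the larger subunit, was at 164.7 and 184.7 against 183.3 and 249.4 CPM (log2 fold change 0.31, SE 0.17, adjusted p = 0.301). Per kb of exon RRM1 was the highest of the role, at 41.82 CPM per kb in Ctrl. TYMS, thymidylate synthase, was at 39.31 and 45.84 against 36.91 and 59.48 CPM (log2 fold change 0.18, SE 0.23, adjusted p = 0.668). The antisense gene ENOSF1 overlaps 39.1% of the TYMS exon bases and had 917 to 1231 counts per library. Because the strand setting is not given, reads of TYMS and ENOSF1 cannot be told apart there.

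Most of the 38 genes were higher in replicate 2 than in replicate 1 of both groups. In Ctrl, replicate 2 was above replicate 1 for 32 of the 38 genes (49.7% of all tested genes), with a median log2 ratio of 0.166, beside -0.002 over all tested genes. In shSTAU1 it was above for 35 of 38 (49.3% of all tested genes), with a median of 0.282, beside -0.007. For 30 genes it was above in both groups (31.4% of all tested genes), and RFC1 alone was lower in both. Summed over the 38 genes the level was 4123 and 4581 CPM in Ctrl and 4407 and 5541 CPM in shSTAU1, so that shSTAU1 replicate 1 lay between the Ctrl libraries. The labels give no difference between replicates 1 and 2 beyond the number, and these ratios are given without a test because 1 library stands on each side.

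**Figure D3:**
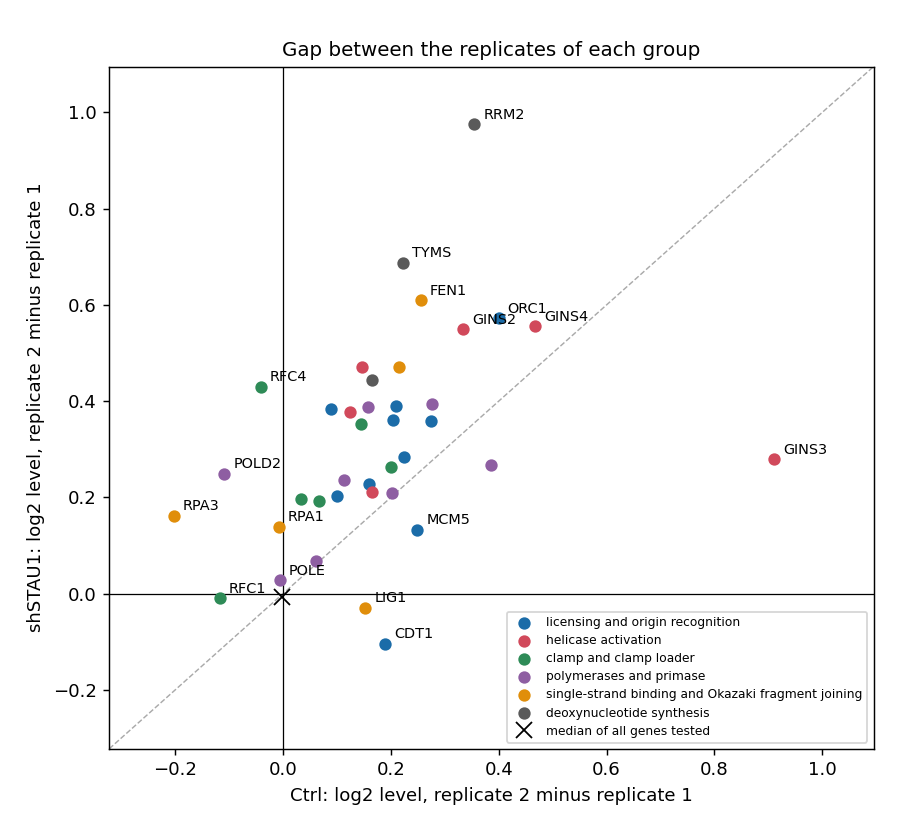
Log2 ratio of replicate 2 to replicate 1 for each of the 38 genes in Ctrl (horizontal axis) and in shSTAU1 (vertical axis). Of the genes, 30 lie above 0 on both axes, and RRM2 has the largest ratio in shSTAU1, at 0.98.

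The gap was wider in shSTAU1 than in Ctrl for 31 of the 38 genes (59.7% of all tested genes). It was widest for RRM2, whose shSTAU1 replicate 2 was 1.97-fold above replicate 1, followed by TYMS and FEN1 with log2 ratios of 0.69 and 0.61. In Ctrl the same ratios were 0.36 for RRM2, 0.22 for TYMS and 0.26 for FEN1. The ratios in Ctrl ran from -0.20 for RPA3 to 0.91 for GINS3, a gene at only 3.896 and 7.33 CPM there, and those in shSTAU1 from -0.10 for CDT1 to 0.98 for RRM2. POLE, by contrast, had log2 ratios of -0.01 in Ctrl and 0.03 in shSTAU1. Members with an E2F word had median gaps of 0.19 in Ctrl and 0.279 in shSTAU1 (n = 17), and members with a window but no word had 0.158 and 0.378 (n = 15). Their median log2 fold changes between the groups were 0.08 and 0.21. The shSTAU1 replicate 2 library was the highest of the 4 for 26 of the 38 genes, beside 27.5% of all tested genes.

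Within each replicate number, shSTAU1 was set against the Ctrl library with that number. Under number 1 the median log2 ratio of the 38 genes was 0.06 and 24 were above 0 (51.1% of all tested genes). Under number 2 it was 0.18 and 27 were above 0 (49.1%). The ratio was above 0 under both numbers for 20 genes (37.2%), below 0 under both for 7, and differed in sign for 11 (25.6%). RPA3 was at 0.56 and 0.93, RPA1 at 0.50 and 0.65, GINS1 at 0.56 and 0.60, PCNA at 0.43 and 0.63, PRIM1 at 0.51 and 0.52, and POLE at -0.43 and -0.40. The groups did not overlap for these 6 genes, so ratios of 1 sign under both numbers follow from that and add no further evidence. Among genes whose groups overlapped, RRM2 was at 0.06 under number 1 and 0.68 under number 2, and TYMS at -0.09 and 0.38.

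**Figure D4:**
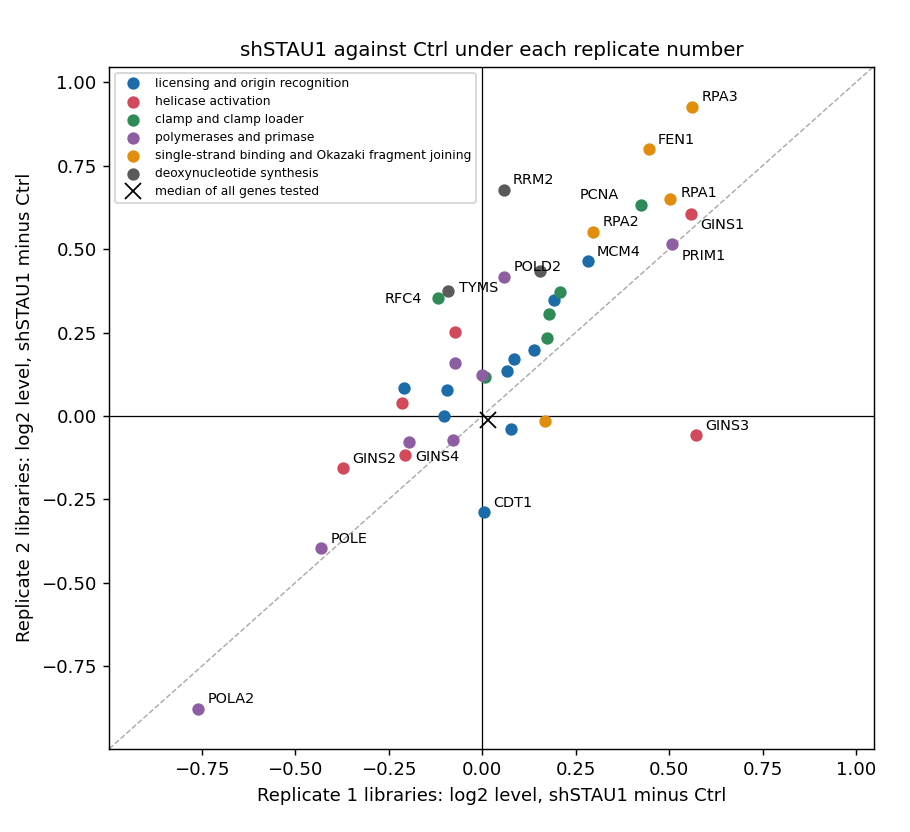
Log2 ratio of shSTAU1 to Ctrl for each of the 38 genes, among the replicate 1 libraries (horizontal axis) and the replicate 2 libraries (vertical axis). Ratios are above 0 on both axes for 20 genes, below 0 on both for 7 and of opposite sign for 11.

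Other genes of the pathway were examined as lists. Of 17 further licensing and initiation factors, all were tested and 0 passed the threshold in edgeR (1 at an unadjusted p of 0.05, ORC5), with a median log2 fold change of 0.06. Of 21 further fork, lagging strand and clamp loader genes, 18 were tested and 0 passed (3 at an unadjusted p of 0.05, POLE3, TIMELESS and TOP1), with a median of 0.11. POLD4 and RNASEH2A had at most 15 counts per library and ASF1B had none. Of 13 further genes of deoxynucleotide supply, 0 passed (2 at an unadjusted p of 0.05, DUT and SAMHD1), with a median of 0.07. DESeq2 also called 0 genes of these 3 lists, beside 10.1% of all tested genes. In edgeR 2.6% of all tested genes passed, and 12.9% were higher and 11.6% lower at an unadjusted p of 0.05. The listed genes named at that level were all higher.

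The regulators that act upstream of replication included genes past the threshold. Of 30 E2F, RB and G1/S regulators, 29 were tested, and 1 rose and 1 fell in edgeR, beside 2.6% of all tested genes called. DESeq2 called 5 of them (CDK4, CDK6, CCNE1, E2F5 and RBL1), beside 10.1% of all tested genes. CDK4, a cyclin D kinase that phosphorylates RB, was at 156.7 and 174.0 CPM in Ctrl and at 266.1 and 319.3 CPM in shSTAU1, a rise of 0.82 on the log2 scale (SE 0.142, adjusted p = 0.036 in edgeR). Its relative CDK6 was at 79.31 and 88.54 CPM in Ctrl and at 37.8 and 49.24 CPM in shSTAU1 (log2 fold change -0.95, SE 0.168, adjusted p = 0.0366). The kinases thus moved in opposite directions, and in neither did the groups overlap. Neither passed the threshold without the filter on low counts (adjusted p = 0.0991 for CDK4 and 0.104 for CDK6). CDK4 also did not pass without Ctrl replicate 1 (adjusted p = 0.144) or without Ctrl replicate 2 (adjusted p = 0.0695), and CDK6 did not pass without Ctrl replicate 2 (adjusted p = 0.0891), within ranges of 6.94e-07 to 0.144 and 7.33e-05 to 0.104 over the alternatives without a replicate term.
The cyclins E, which drive entry into S phase with CDK2, did not pass the threshold in edgeR. CCNE1 was at 14.45 and 17.29 CPM in Ctrl and at 22.66 and 32.0 CPM in shSTAU1 (log2 fold change 0.78, SE 0.216, adjusted p = 0.0849), and CCNE2 at 13.41 and 14.63 against 16.69 and 28.44 CPM (log2 fold change 0.69, SE 0.262, adjusted p = 0.162). Both were apart between the groups. CCNE1 passed with DESeq2 (adjusted p = 0.0181). Both estimates depended on the shSTAU1 library kept. They were highest without shSTAU1 replicate 1 and lowest without shSTAU1 replicate 2 (log2 fold change 0.495 for CCNE1 and 0.232 for CCNE2). Over the alternatives without a replicate term the adjusted p ran from 0.000198 to 0.326 for CCNE1 and from 0.00027 to 0.571 for CCNE2.
The largest estimate of the list was that of E2F5, a member of the E2F family that binds RBL1 and RBL2, with 21 and 36 counts in Ctrl and 136 and 83 in shSTAU1 (log2 fold change 1.86, SE 0.459, adjusted p = 0.071 in edgeR). RBL1, a relative of RB1, was at 126.1 and 139.8 CPM in Ctrl and at 77.7 and 97.65 CPM in shSTAU1 (log2 fold change -0.60, SE 0.154, adjusted p = 0.0748). The groups did not overlap in either gene. E2F1, an activator of replication genes, was at 11.27 and 14.9 against 9.766 and 13.64 CPM and overlapped (log2 fold change -0.16, adjusted p = 0.721), and E2F2 had no counts. CDKN1A, an inhibitor of cyclin-dependent kinases, was at 23.25 and 15.27 CPM in Ctrl and at 24.67 and 11.43 CPM in shSTAU1. It was lower in replicate 2 than in replicate 1 of both groups, opposite to most replication genes. RB1, MYBL2, GMNN and TK1 had log2 fold changes of 0.28, 0.16, 0.20 and 0.07, with adjusted p values from 0.306 to 0.797.

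For comparison, 33 of 34 mitosis genes were tested and 1 passed in edgeR, the spindle checkpoint gene MAD2L1, beside 2.6% of all tested genes. DESeq2 called 2 (MAD2L1 and PTTG1, beside 10.1%). The edgeR test called 0 without a filter (background 0.0443%), and the number called also changed with 1 library left out. MAD2L1 was at 29.05 and 27.37 CPM in Ctrl and at 47.42 and 54.33 CPM in shSTAU1, a rise of 0.85 on the log2 scale (SE 0.151, adjusted p = 0.0366 in edgeR). Its adjusted p was 0.102 without a filter, 0.106 without Ctrl replicate 1 and 0.146 without Ctrl replicate 2, the last being the highest value over the alternatives without a replicate term and 5.4e-05 the lowest. MKI67, a marker of proliferating cells, was at 3679 and 4275 CPM in Ctrl and at 3329 and 4335 CPM in shSTAU1 (log2 fold change -0.05, adjusted p = 0.866). Replicate 2 exceeded replicate 1 in both groups for 26 of the 33 mitosis genes (31.4% of all tested genes). The medians were 0.145 in Ctrl and 0.381 in shSTAU1. The gap was wider in shSTAU1 for 33 of 33 mitosis genes and 31 of 38 replication genes, beside 59.7% of all tested genes. The sign of the within-number ratio differed for 20 of the 33 mitosis genes and for 11 of the 38 replication genes. It differed for 25.6% of all tested genes. The lists were not compared by a test, since their genes share the same 4 libraries.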

How the data were processed

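RNA-sequencing libraries of 2 Ctrl and 2 shSTAU1 samples were prepared with an exome capture kit. The authors deposited whole-number counts per gene without normalization. The submitters' processing notes name Partek and hg38, with no role, and the aligner, counting program and strand setting are not given in the sources used here. Of 67008 rows, 45 were second copies of pseudoautosomal genes with 0 counts, and 58516 identifiers were in GENCODE 29, with 99.868% of the counts. The number of sample columns left unmapped was 0.

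Counts were filtered with filterByExpr, scaled by TMM and compared with the quasi-likelihood test of edgeR 4.0.16 (the earlier form, legacy = TRUE) in R 4.3.3, with Benjamini-Hochberg adjustment over 14303 genes at 0.05. The replicates of a group differed by more than counting noise (chi-square per degree of freedom 25.2 in Ctrl and 60 in shSTAU1), and the biological coefficient of variation was 19.1%. Alternatives were DESeq2 1.42.0, limma-voom (limma 3.58.1), library size scaling, no filter, a length and GC correction, the replicate number as a block, other thresholds and leaving out each library. The newer edgeR form was added after the data were examined. Counts were also simulated for shSTAU1 against Ctrl (14303 genes, 200 changed). On these, edgeR recovered 49.5% of changes of 1 and 86.3% of changes of 2 on the log2 scale, with 9 false calls of 143. With the replicate block it made 138 calls on them, while the data gave 372 calls without the block and 4087 with it. Whether these rates hold for the data was not tested. No rate is given for changes as small as the member estimates (-0.83 to 0.74). Levels per kb used the union of the exons of a gene in GENCODE 29. Reads on annotated processed copies came to at most 0.512% of the reads of a member.

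The members and lists were chosen with earlier results of these data known. Values per library were given by rule for STAU1, members past the threshold, the largest rise, largest fall and highest level per length of each role, listed genes past the threshold and 9 regulators. Further genes were picked for the text with their values in view.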

Additional observations from a re-analysis of the deposited data

How the results depend on the processing

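Where a count or sign changed, the cause was not tested. Over all genes the 372 calls (161 higher, 211 lower) became 1449 with DESeq2, 11 without a filter, 1585 at an adjusted p of 0.10, 2098 by a 1.5-fold difference at an unadjusted p of 0.05, and 214 to 2625 with 1 library left out. They were 132 higher and 272 lower with library size scaling, which moved the median of all genes from 0.006 to -0.046. For the 38 replication genes, 0 became 4 with DESeq2, 2 with the newer edgeR form, 5 at 0.10, 2 by fold change, and 0 to 12 with 1 library left out, with 0 under the other settings without a block. For the 4 other replication and G1/S lists, 2 became 5, 0 without a filter, 6 at 0.10, 7 by fold change, and 0 to 18 with 1 library left out. The median of the 38 genes was -0.052 to 0.315 with 1 library left out. The replicate number was not treated as a pairing in the main fit, because the labels do not say what it stands for and there are 2 pairs. The library names do give each Ctrl library the same first digit as the shSTAU1 library with its number. Same-numbered libraries deviated together (correlation 0.271 over tested genes and 0.587 over 4791 genes whose log2 CPM exceeded 5). With the replicate block the calls were 4087 over all genes (28.6%), 13 of the 38 (12 higher, 1 lower) and 20 of the 77 in the other lists. With the length and GC correction and the block they were 3487 (24.4% of all tested genes), 9 and 23. Of the 38 estimates, 20 kept their sign under all 12 alternatives with an estimate of their own. ORC1 was -0.048 with library size scaling, -0.008 with limma-voom and with the block, -0.046 with the length and GC correction and -0.058 with both. MCM5 was -0.037 with library size scaling. TK1 was -0.034 and MKI67 0.064 with the correction, and -0.034 and 0.054 with the correction and the block. With 1 library left out, fits keep the 14303 genes and take the lone library to vary like the other group. Signs then changed within ranges of -0.327 to 0.264 for ORC1, -0.033 to 0.213 for ORC6, -0.272 to 0.13 for CDC6, -0.077 to 0.301 for MCM2, -0.119 to 0.145 for MCM5, -0.174 to 0.049 for MCM6, -0.166 to 0.323 for MCM10, -0.297 to 0.1 for CDC45, -0.568 to 0.001 for GINS2, -0.206 to 0.721 for GINS3, -0.478 to 0.098 for GINS4, -0.116 to 0.334 for RFC4, -0.359 to 0.054 for POLA1, -0.172 to 0.235 for POLD1, -0.076 to 0.178 for POLD3, -0.015 to 0.154 for LIG1, -0.149 to 0.845 for RRM2, -0.225 to 0.482 for TYMS, -0.441 to 0.06 for E2F1, -0.753 to 0.337 for CDKN1A, -0.019 to 0.3 for MYBL2, -0.06 to 0.42 for GMNN, -0.003 to 0.137 for TK1 and -0.275 to 0.125 for MKI67. Of 714 values of single genes under the alternatives, 596 kept their direction and side of the threshold, 8 lost the threshold, 64 gained it and 46 changed sign. CDK4, CDK6 and MAD2L1 lost it without a filter (adjusted p of 0.0991, 0.104 and 0.102).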
